A study of Mus musculus with 4 samples.

Results

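The transcripts described here are the long noncoding entries of a RefSeq gene table measured in sorted mouse embryonic stem (ES) cells. A symbol belonged to the set when every RefSeq transcript listed under it was noncoding (an NR identifier), every transcript was at least 200 bases long, and its mean level over the 4 libraries was at least 2 FPKM (reads scaled to transcript length and to library size). Symbols of small RNAs, predicted (Gm) genes, ribosomal (Rn, Rp), Zscan4, Trim, Usp and Zfp families, names holding -ps, and 4 single genes (H19, Meg3, Rian and D17Ertd648e) were dropped by name. The name drops took out 112 of 337 symbols. Of these, 9 were higher and 2 lower in Em+ cells in the edgeR fit used below, so the choice of names bears on the share of members called. The rule found 225 members among 19797 symbols, out of 1230 symbols that met the annotation, length and name criteria at any level. The members were selected on measured levels (their mean FPKM), so levels are given as a description with no test. The comparison of the sorted fractions was not part of the rule.

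The cells were MC1-ZE7, 1 ES cell line of the strain background MC1 (129S6/SvEvTac), whose Emerald fluorescent reporter marks cells that transcribe Zscan4, a gene cluster active in the early mouse embryo and from time to time in a minority of cultured ES cells. All cells were grown without feeders in serum with leukemia inhibitory factor and sorted by Emerald fluorescence, and ribosomal RNA was removed before stranded libraries were made. Em+ is the high-fluorescence fraction and Em- the Emerald-negative fraction, with 2 libraries each. Whether both libraries of a fraction stem from independent cultures or sorting runs is not stated, and the p-values below cover only library-to-library spread, which may be technical. Title and cell type field give the same fraction for each of the 4 samples, whereas the description field gives the other fraction. As a check of the titles, the 3 tested Zscan4 genes summed to 199 and 207 CPM (counts scaled to library size, with TMM factors) in the Em+ libraries, against 1.65 and 2.27 CPM in the Em- libraries.

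Long noncoding RNAs are transcripts with no long open reading frame that act as RNA or are by-products of transcription. Some build nuclear structures, such as Neat1 in paraspeckles, or form the RNA core of an enzyme, such as Terc in telomerase and Rmrp in the RNase MRP complex. Others are host transcripts whose introns carry small nucleolar RNAs (snoRNAs), the guides for chemical modification of ribosomal RNA, and many spliced hosts are degraded by nonsense-mediated decay once the snoRNA has been cut out. ES cells are known to express several long noncoding RNAs linked to the pluripotent state, among them the Platr transcripts and ephemeron (Eprn).

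Total RefSeq counts were 17927765 and 16468218 in Em+ and 18364973 and 18953217 in Em-, and members took 4.24% and 4.46% of them in Em+, against 4.12% and 4.03% in Em-. Em+ replicate 2 stood apart from the other libraries. RefSeq genes held 43.5% of its deposited library total, against 49.0 to 51.1% in the other 3 libraries, and the ribosomal precursor Rn45s took 7.95% of its RefSeq counts, against 3.93 to 4.33% elsewhere. Summed FPKM of 8 ES cell markers ran from 1396 (Em+ replicate 2) to 1910 (Em+ replicate 1) in Em+ and from 1981 to 2009 in Em-. The 8 primitive endoderm markers, all with reads, summed to 17.03 to 22.2 FPKM in Em+ and 23.6 to 25.2 FPKM in Em-, and the 8 trophoblast markers, all with reads, summed to 15.0 to 17.98 FPKM in Em+ and 16.5 to 16.9 FPKM in Em-. Of 8 fibroblast markers 4 were absent or at 0, and the rest summed to 24.3 to 32.2 FPKM in Em+ and 30.03 to 32.5 FPKM in Em-. Of the 2 fibroblast markers tested, Thy1 was higher in Em+ (0.89, edgeR adjusted p = 0.00386), and Vim was not called (−0.15, edgeR adjusted p = 0.339). Of the 8 ES cell markers, 4 had log2 fold changes above 0 and 4 below. Nanog was called higher (0.48, edgeR adjusted p = 0.0192). Sox2 had −0.29 (edgeR adjusted p = 0.0933) and was called lower by DESeq2 but not by edgeR. The part of these differences in the results on members was not tested.

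Most members were expressed at modest levels, and 2 of them supplied most of the reads. Only 6 members averaged 100 FPKM or more, 60 lay between 10 and 100, 53 between 5 and 10, and 106 between 2 and 5, with a median of 5.40 FPKM. Rmrp supplied 39.0% of the members' reads and Malat1, a nuclear speckle RNA, 40.6%. In FPKM, Rmrp had 30578 and 26623 in Em+ and 30912 and 27688 in Em-. Its transcript is 275 bases long, the shortest of the members, whose longest transcripts reached 7979 bases with a median of 1447. Malat1 followed with 1172 and 1206 FPKM in Em+ and 1164 and 1206 FPKM in Em-. The snoRNA hosts 2410006H16Rik (mean 244 FPKM), Snhg1 (181 FPKM) and Snhg3 (163 FPKM) came next, then Terc (112 FPKM), the hosts Gas5 (90.03 FPKM), 2410004N09Rik (75.0 FPKM) and Snhg5 (72.9 FPKM), and 5730408K05Rik (62.5 FPKM). The deposited known-gene table gives 5730408K05Rik a low level, 2.39 and 2.43 CPM in Em+ and 3.51 and 4.37 CPM in Em-. Its rank here is therefore that of the RefSeq table, and the cause of the difference was not tested. Of the 10 members with the highest mean level, 6 were therefore snoRNA hosts.

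The symbols are old names in many cases, 129 of them RIKEN clone names, and current annotation places them in several classes. Of the 225 members 221 matched RefSeq's gene table for the same genome (GRCm38.p6), 197 by transcript identifier and 24 by symbol or synonym. Today 158 are long noncoding RNA genes, 13 are transcribed pseudogenes and 2 are structural RNAs. A further 48 are protein-coding loci, such as Srsf3 and Sfpq, for which the deposited table listed noncoding transcripts only. Their values may hold reads of the coding transcripts. At the lower edge of the rule, B130006D01Rik (2.02 FPKM), 4930596I21Rik (2.04 FPKM) and 2900041M22Rik (2.04 FPKM) were just inside, and 4930507D05Rik (1.99 FPKM), 2810002D19Rik (1.96 FPKM) and 2210015D19Rik (1.96 FPKM) were just outside. Of the 1005 symbols that met all other criteria but averaged under 2 FPKM, an edgeR fit with no level filter called 33, all of them higher in Em+ cells (5.95% of all 19797 symbols were called there, 4.48% higher and 1.47% lower).

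Between the sorted fractions 6 of the 225 members changed, 3 higher and 3 lower in Em+ cells. That is 2.67% of members, against 4.64% of the 12050 genes tested (edgeR, quasi-likelihood test, with p-values adjusted by Benjamini-Hochberg over all tested genes and a threshold of 0.05). Higher calls were 3.82% and lower calls 0.822% of all tested genes. The members had a mean FPKM of at least 2 and the tested genes of at least 1, so these shares rest on unlike level filters. At an unadjusted p under 0.05 there were 60 members and 3045 genes. The median log2 fold change (Em+ over Em-) was −0.01 over members and 0.00 over all tested genes, and 94.7% of members lay within 0.5 of 0, against 92.4% of all tested genes. The split of calls depended on scaling: with the deposited library totals in place of TMM, 2 members were higher and 12 lower. That fit called 2.77% of all tested genes higher and 2.43% lower, and the median of all tested genes was −0.16. The 2 higher members there were 2210409E12Rik and BC002163, and nearly all RefSeq reads of BC002163 came from Em+ replicate 1. The material is bulk RNA, so a transcript present in fewer cells and one with fewer copies per cell cannot be told apart.

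**Figure D1:**
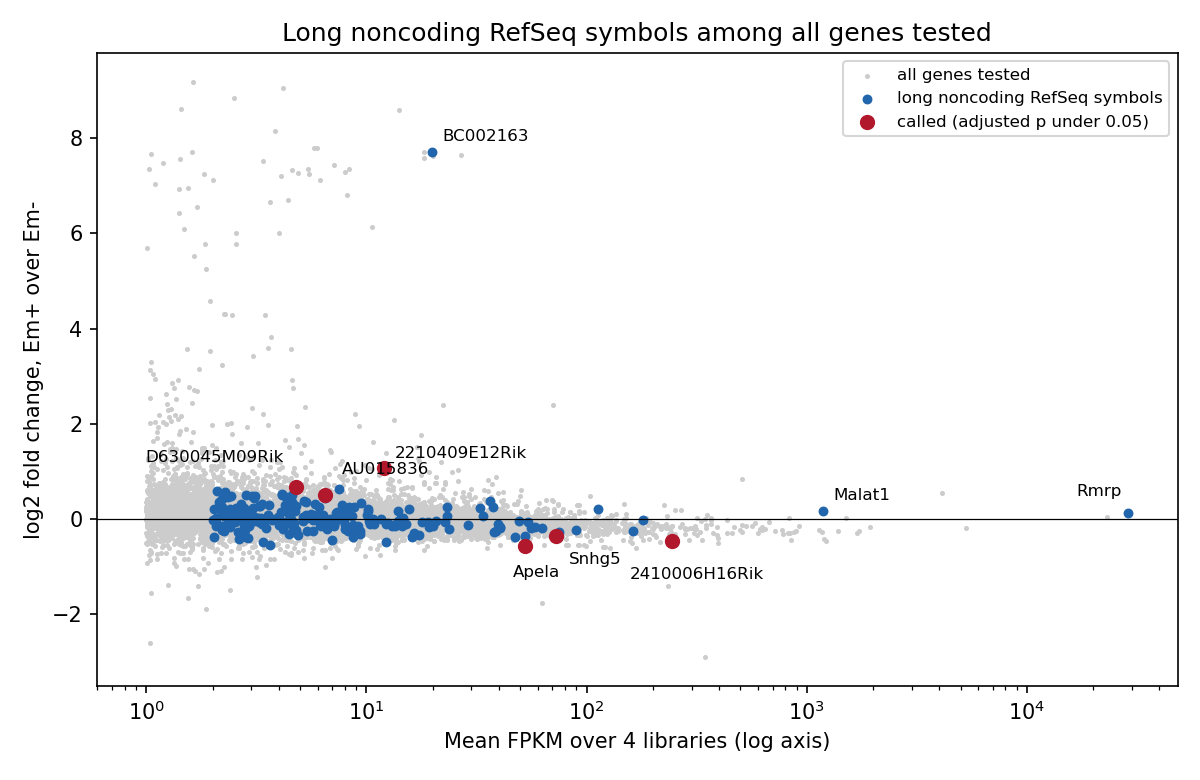
Each point is 1 gene, with its mean FPKM over 4 libraries on a log axis and its log2 fold change (Em+ over Em-) on the vertical axis. Grey points are all 12050 tested genes, blue points the 225 long noncoding symbols and red points the 6 with an adjusted p under 0.05. All blue and red points except 2210409E12Rik at 1.07 and BC002163 at 7.71 lie within 1 log2 unit of 0.

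The 3 members that were higher in Em+ cells were 2210409E12Rik, AU015836 and D630045M09Rik. The largest called change of the set was in 2210409E12Rik, a transcribed pseudogene on chromosome 11 (88972638 to 88973014 in mm10). Its level was 14.1 and 11.9 CPM in Em+ and 6.98 and 5.48 CPM in Em-. Both Em+ values lay above both Em- values (log2 fold change 1.07, SE 0.16, edgeR adjusted p = 0.0107). It was called in all 16 alternative fits in which it had a value. Coil, the gene of the Cajal body protein coilin, starts 920 bases away and had a log2 fold change of −0.11 (edgeR adjusted p = 0.417).

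AU015836 is a long noncoding RNA gene on the X chromosome (93968656 to 93975470). It had 50.1 and 45.6 CPM in Em+ and 33.9 CPM in each Em- library, with no overlap (log2 fold change 0.50, SE 0.08, edgeR adjusted p = 0.0155). It was not called in 3 of 17 alternative fits, among them that with the deposited library totals (0.34, edgeR adjusted p = 0.182). Of the 10 members on the X chromosome it was the only one called, beside 4.64% of all 12050 tested genes. Its nearest protein-coding gene, Zfx, lies 99160 bases away and had a log2 fold change of 0.03 (edgeR adjusted p = 0.807).

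D630045M09Rik is Eprn in current annotation, ephemeron, a long noncoding RNA described in mouse ES cells as taking part in the exit from the naive state. It lies on chromosome 13 (73344665 to 73347384). It had 17.8 and 14.2 CPM in Em+ and 10.2 and 9.96 CPM in Em- (log2 fold change 0.67, SE 0.14, edgeR adjusted p = 0.0425). The Em+ libraries were again both above the Em- libraries. The call was lost in 4 of 15 alternative fits, among them those with library totals (0.52, edgeR adjusted p = 0.0610) and of the known-gene table (0.66, edgeR adjusted p = 0.0618). The nearest coding genes, Mrpl36 and Ndufs6 of the mitochondrion, had log2 fold changes of 0.04 and 0.04 (edgeR adjusted p = 0.820 and 0.854). Irx4, 75044 bases away and below the level filter, had 20 and 22 counts in Em+ and 5 counts in each Em- library.

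Apela had the largest called fall. It encodes the peptide ligand of the apelin receptor, also called Elabela or Toddler, and the deposited table listed it under a noncoding identifier only. Apela (chromosome 8, 65028417 to 65037336) had 90.9 and 79.1 CPM in Em+ and 124 and 127 CPM in Em-. Both Em+ values were below both Em- values (log2 fold change −0.56, SE 0.08, edgeR adjusted p = 0.00842). It was called in 13 of 15 alternative fits and not in either limma fit (largest adjusted p = 0.108). The nearest coding genes, Trim60 and Trim61 at 9728 bases, were below the level filter. Trim75, a RING-domain gene 40772 bases away on the same chromosome, had 41.3 and 46.2 CPM in Em+ against 0.385 and 0.949 CPM in Em- (log2 fold change 6.01, SE 0.23, edgeR adjusted p = 5.87e-06). On the other side of Trim75, Tmem192 had −0.03 (edgeR adjusted p = 0.886). Apela and Trim75 therefore changed in opposite directions, and both passed the edgeR test.

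**Figure D2:**
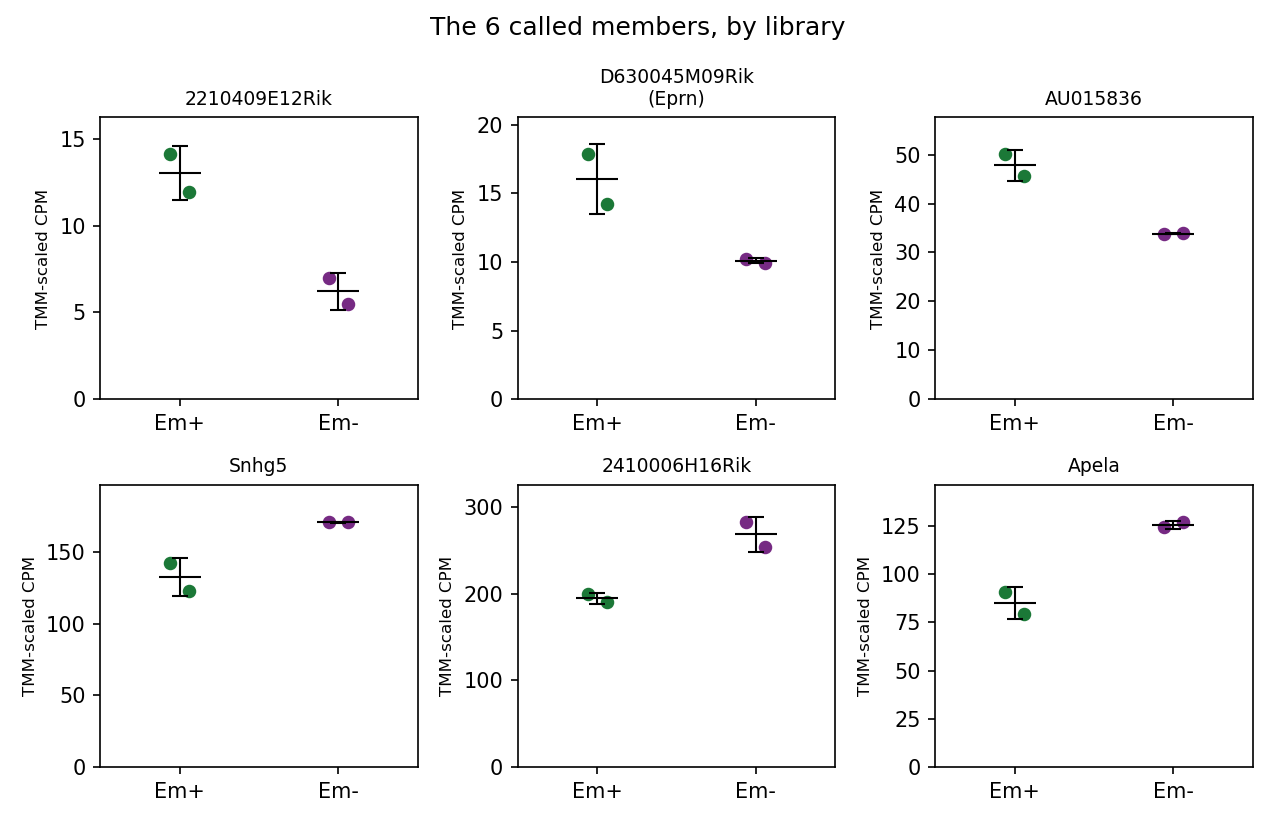
TMM-scaled CPM of the 6 called members in each library, Em+ in green and Em- in purple, with the mean and SD of 2 libraries per fraction as black bars. The Em+ and Em- values do not overlap in any of the 6 panels, and the 3 members of the upper row are higher and the 3 of the lower row lower in Em+.

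The start regions of 2 called members are shown to set these genes beside the other called ones. They are RefSeq windows from 250 bases before to 50 bases after the annotated start (GRCm38.p6), printed 5′ to 3′, with the transcribed 50 bases in capitals.
Apela (chr8:65037287-65037586, - strand): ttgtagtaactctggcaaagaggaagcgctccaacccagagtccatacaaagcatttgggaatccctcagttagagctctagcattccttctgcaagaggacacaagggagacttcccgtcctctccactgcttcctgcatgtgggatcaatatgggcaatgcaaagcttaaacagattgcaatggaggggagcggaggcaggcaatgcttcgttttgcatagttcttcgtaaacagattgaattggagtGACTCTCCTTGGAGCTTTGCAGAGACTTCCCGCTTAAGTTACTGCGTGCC
D630045M09Rik (chr13:73347335-73347634, - strand): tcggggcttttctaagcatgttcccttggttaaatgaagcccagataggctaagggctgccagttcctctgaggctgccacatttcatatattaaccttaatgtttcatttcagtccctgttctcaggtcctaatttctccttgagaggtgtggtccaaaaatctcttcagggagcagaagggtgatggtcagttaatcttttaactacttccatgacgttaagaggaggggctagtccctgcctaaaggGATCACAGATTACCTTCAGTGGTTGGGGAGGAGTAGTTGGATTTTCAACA
The G+C content of these windows was 49.0% for Apela and 45.3% for D630045M09Rik, with 7 and 2 CpG dinucleotides. The windows of the called hosts 2410006H16Rik and Snhg5 had 65.7% and 62.0% G+C with 31 and 36 CpGs, and the median over 32851 RefSeq promoter windows was 52.7% and 7. The letters TGCACAC, a motif reported for mouse Zscan4 protein, were searched on both strands (GTGTGCA on the other) and occur in none of these 4 windows, while 4.40% of all windows hold them. TATAAA, searched with TTTATA for the other strand, occurs in Snhg5 alone of the 4, starting 23 bases before the transcript, and in 13.6% of all windows. A match or its lack describes only the letters of the window.

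Among transcripts that host snoRNAs 2 of 17 fell in Em+ cells, beside 0.822% of all 12050 tested genes. The fitted values of most of the other hosts were below 0 without passing the test. The 17 members are those of a list of known hosts, matched on old or current symbols. Their log2 fold changes ran from −0.47 to 0.08 with a median of −0.23, beside 0.00 over all tested genes, and 14 of the 17 were below 0. With deposited library totals 17 of 17 were below 0, and the same 14 were below that fit's all-gene median of −0.16. At an unadjusted p under 0.05 in either direction there were 9 of the 17, beside 3045 of all 12050 tested genes. In 12 of the 17 both Em+ values were below both Em- values, as they were in 29.7% of all tested genes. Without Em+ replicate 1 the fit called 10 of the hosts (41.4% of all tested genes were called there) and without Em+ replicate 2 it called 5 (16.3% of all tested genes).

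The host 2410006H16Rik carries Snord49a, Snord49b and Snord65 (chromosome 11, 62602877 to 62604806). It had 200 and 190 CPM in Em+ and 283 and 254 CPM in Em-. The fractions did not overlap (log2 fold change −0.46, SE 0.08, edgeR adjusted p = 0.0159). The call was lost in 3 of 17 alternative fits. Leaving out Em- replicate 1 ended the call (−0.39, adjusted p = 0.154). Lrrc75a, a coding gene 77 bases from its end, had a log2 fold change of −0.04 (edgeR adjusted p = 0.778).

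Snhg5 (chromosome 9, 88521053 to 88522897) had 142 and 123 CPM in Em+ and 171 CPM in each Em- library. Zfp949, its nearest coding gene at 25122 bases, had a log2 fold change of 0.14 (edgeR adjusted p = 0.316). Trim43a, 58138 bases away and below the level filter, had 36 and 38 counts in Em+ and 10 and 11 counts in Em-. The log2 fold change of Snhg5 was −0.37 (SE 0.08, edgeR adjusted p = 0.0496), so the call sits at the threshold. It was lost in 7 of 17 alternative fits: without Em- replicate 1 (adjusted p = 0.190), without Em- replicate 2 (adjusted p = 0.154), without Rn45s (adjusted p = 0.0530), at a mean FPKM of at least 2 (adjusted p = 0.0652), in the known-gene table (adjusted p = 0.0593) and in both limma fits (largest adjusted p = 0.239).

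Dancr, a noncoding RNA first studied in progenitor cell differentiation, had the lowest fitted value of the hosts but few reads. It had 6.69 and 5.37 CPM in Em+ and 9.07 and 7.75 CPM in Em- and did not pass (−0.47, SE 0.16, edgeR adjusted p = 0.139). Gas5, a host known to accumulate in growth-arrested cells, had 454 and 423 CPM in Em+ and 511 and 515 CPM in Em- (−0.23, SE 0.07, edgeR adjusted p = 0.114). Snhg3 had 144 and 123 CPM in Em+ and 163 and 155 CPM in Em- (−0.25, SE 0.09, edgeR adjusted p = 0.136). These 3 hosts had no overlap between the fractions, yet none passed the test. Snhg1, the host with the most reads after Gas5 and 2410006H16Rik, did overlap, with 180 and 175 CPM in Em+ and 176 and 184 CPM in Em- (−0.02, SE 0.06, edgeR adjusted p = 0.843). The 2 symbols of Snhg14, the long imprinted host on chromosome 7, had 0.08 (C230091D08Rik) and 0.07 (D7Ertd715e).

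Many snoRNA hosts are known to start within a run of pyrimidines, the 5′ terminal oligopyrimidine element of transcripts whose fate follows growth signals, and the start windows are shown for that reason. Each window runs from 10 bases before the RefSeq start (GRCm38.p6) to 20 bases from it, 5′ to 3′, with the longest run of C and T that begins near the start in capitals.
2410006H16Rik (chr11:62602867-62602896, + strand): cgccgTCTTTCTCTgcggccatcatgggat
Snhg5 (chr9:88522878-88522907, - strand): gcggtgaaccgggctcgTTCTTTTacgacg
Gas5 (chr1:161035156-161035185, + strand): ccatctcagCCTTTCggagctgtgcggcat
Snhg1 (chr19:8723477-8723506, + strand): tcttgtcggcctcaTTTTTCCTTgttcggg
Snhg12 (chr4:132308668-132308697, + strand): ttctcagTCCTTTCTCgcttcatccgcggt
Snhg8 (chr3:123508317-123508346, - strand): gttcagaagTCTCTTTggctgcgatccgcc
Snhg3 (chr4:132353667-132353696, - strand): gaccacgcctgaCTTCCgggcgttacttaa
Dancr (chr5:74093050-74093079, + strand): ctcggggggggggggcagCTCCgcccctct
Windows were read for 13 of the hosts. A run of at least 6 C or T that begins from 5 bases before to 10 after the start was present in 9 of these 13 (69.2%), against 18.5% of 32851 promoter windows. The called 2410006H16Rik and Snhg5 hold such a run, and so do Snhg1 and Snhg12, which were not called. Dancr and Snhg3 have only shorter runs that begin in this range. A longer run at the end of the Dancr window begins past the range. The start used for Dancr lies 23 bases from the one in the deposited table, so its result depends on the start chosen.

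**Figure D3:**
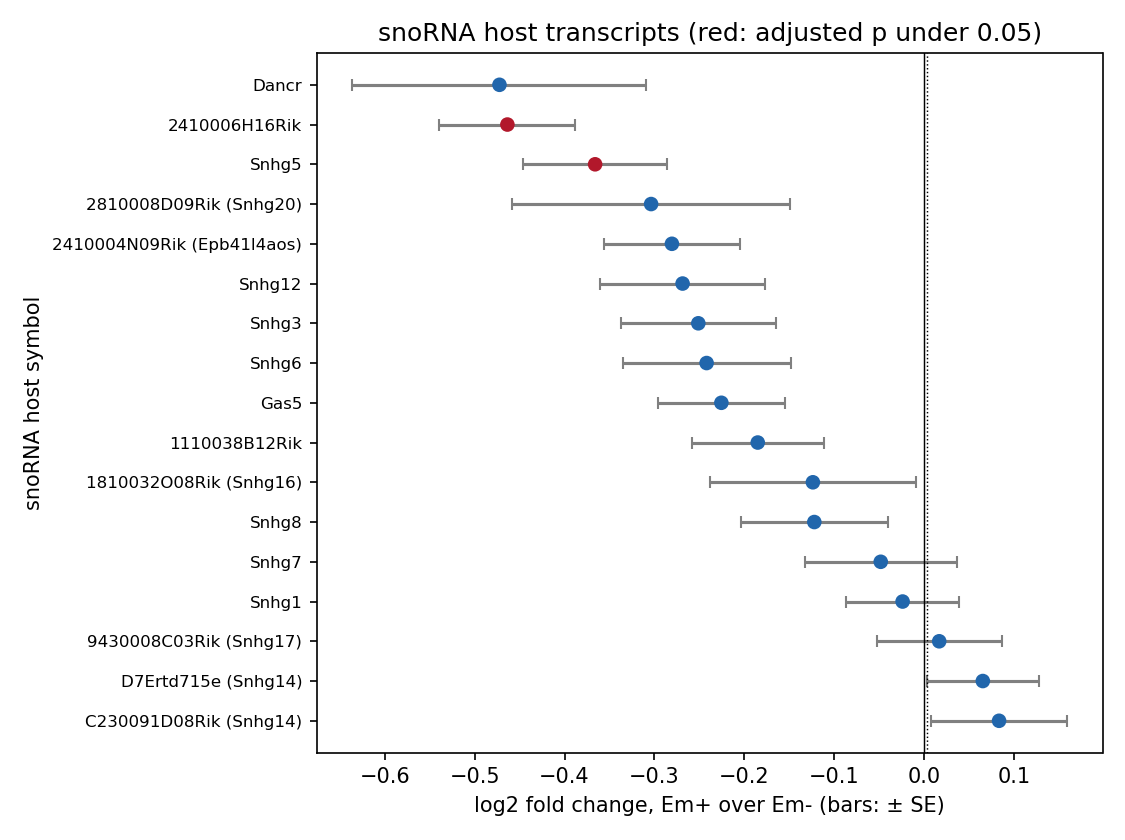
The log2 fold change (Em+ over Em-) of each of the 17 snoRNA hosts, from lowest at the top to highest at the bottom, with bars of 1 SE from the edgeR fit. The dotted line is the median of all tested genes, and 14 of the 17 hosts lie to its left, 2 of them called (red).

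The snoRNAs inside these hosts and the proteins that bind them were read from the same fit. The table held 18 snoRNA entries for 10 of the member hosts. None was called, 12 were below 0, and their median was −0.12. At the called host 2410006H16Rik, Snord65 had 195 and 157 counts in Em+ and 247 and 246 counts in Em- (−0.35, edgeR adjusted p = 0.129), Snord49b had −0.29 (adjusted p = 0.117) and Snord49a −0.20 (adjusted p = 0.219). The 3 intronic RNAs lay below 0 like their host, and none of them passed. Reads of entries as short as these 57 to 63 bases are few relative to the library fragments, and overlap with the host was handled in a way not given in the sources used here. Of the snoRNP proteins, which package snoRNAs, 8 were tested and none was called. All 8 were below 0 with a median of −0.17, and 1 had an unadjusted p under 0.05 in edgeR, beside 3045 of all 12050 tested genes. Nhp2 had 100 and 86.5 CPM in Em+ and 113 and 109 CPM in Em- (−0.25, edgeR adjusted p = 0.127).

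Proteins of RNA decay were read beside the hosts. Of 10 nonsense-mediated decay factors 0 were called and 0 had an unadjusted p under 0.05 in edgeR, with a median of 0.02. Of 17 nuclear exosome genes 1 rose, beside 3.82% of all 12050 tested genes called higher. The exosome gene that rose was C1d, a cofactor of the exosome, with 102 and 97.9 CPM in Em+ and 57.2 and 62.3 CPM in Em- (0.74, SE 0.08, edgeR adjusted p = 0.00162). The median of the list was −0.01.

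The nuclear and structural RNAs did not pass the test in any case, and Malat1 and Neat1 were high in Em+ replicate 2 alone in TMM-scaled CPM. The median log2 fold change of the 5 nuclear and structural members depended on scaling. It was 0.18 with TMM (all genes 0.00) and 0.00 with deposited library totals (all genes −0.16). Malat1 had 16686 and 20154 CPM in Em+ and 16041 and 16583 CPM in Em- (0.18, SE 0.20, edgeR adjusted p = 0.616). Neat1 had 135 and 202 CPM in Em+ and 145 and 137 CPM in Em- (0.26, SE 0.16, edgeR adjusted p = 0.361). In both, replicate 2 of Em+ was the highest library on this scale, and Em+ replicate 1 lay close to or below the Em- libraries. In FPKM, given above, Malat1 was level between Em+ replicate 2 and Em- replicate 2. The difference was wider for the long Neat1 isoform, the one that builds paraspeckles, which the Ensembl table lists with 20771 bases and the RefSeq table does not. It had 3.49 and 6.67 FPKM in Em+ and 3.06 and 3.24 FPKM in Em-. Summed over isoforms in that table Neat1 did not pass (log2 fold change 0.67, SE 0.25, edgeR adjusted p = 0.181). The level of the short Neat1 transcript (3177 bases) differed between tables that list it under the same identifier. The RefSeq table gives 20.9 and 26.6 FPKM in Em+ and 23.2 and 21.9 FPKM in Em-. The known-gene table gives 0.3872 and 1.1044 FPKM in Em+ and 0.596 and 0.5223 FPKM in Em-. The cause of this difference was not tested. Without Em+ replicate 1, Malat1 (0.31, adjusted p = 6.6e-05) and Neat1 (0.52, adjusted p = 3.43e-05) were called, in a fit that called 41.4% of all tested genes.

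Rmrp had 17144 and 17530 CPM in Em+ and 16778 and 14992 CPM in Em- (0.13, SE 0.19, edgeR adjusted p = 0.712). Terc, the template RNA of telomerase, had 97.3 and 103 CPM in Em+ and 98.8 and 73.8 CPM in Em- (0.22, SE 0.13, edgeR adjusted p = 0.327). The Terc fractions overlapped because Em- replicate 1 was level with the Em+ libraries. Vaultrc5, a vault RNA, had 0.00. The values of the RNA component of telomerase therefore do not separate the fractions, and with 2 libraries each this does not show that they are equal.

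Firre, an X-linked RNA of nuclear organisation, had 91.1 and 112 CPM in Em+ and 83.2 and 82.8 CPM in Em- (0.29, SE 0.10, edgeR adjusted p = 0.140). Among 13 tested protein partners of Xist 0 were called and 2 had an unadjusted p under 0.05 in edgeR, beside 3045 of all 12050 tested genes. Of the imprinted members, Nespas had 18.5 and 30.7 CPM in Em+ and 19.1 and 18.97 CPM in Em- (0.36, SE 0.21, edgeR adjusted p = 0.315). The high value was again that of Em+ replicate 2 alone. Peg3os, antisense to Peg3, had 13.6 and 13.4 CPM in Em+ and 16.98 and 15.1 CPM in Em- (−0.25, SE 0.11, edgeR adjusted p = 0.220).

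Among regulatory RNAs known from ES cells or other lines, 6 listed members were tested and 0 were called, with a median of −0.05. At an unadjusted p under 0.05 in edgeR there were 3 of the 6, beside 3045 of all 12050 tested genes. Tug1 had 144 and 148 CPM in Em+ and 132 and 128 CPM in Em- (0.17, SE 0.06, edgeR adjusted p = 0.153). Norad (2900097C17Rik), which binds Pumilio proteins, had 38.5 and 41.1 CPM in Em+ and 46.1 and 45.5 CPM in Em- (−0.20, SE 0.08, edgeR adjusted p = 0.161). The fractions did not overlap for either gene, by margins that did not pass. Lockd (1190002F15Rik), downstream of Cdkn1b, had 18.7 and 16.7 CPM in Em+ and 21.1 and 22.6 CPM in Em- (−0.30, SE 0.11, edgeR adjusted p = 0.147). Cyrano (1700020I14Rik, now Oip5os1), the RNA known for directing decay of a microRNA, had −0.06 (SE 0.07), Pvt1 −0.04 (SE 0.16) and Chaserr (1810026B05Rik) 0.03 (SE 0.12).

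The Platr transcripts, named for their link to the pluripotent state, were grouped after their values were seen. The 7 members that now carry such names had log2 fold changes from −0.17 to 0.50 with a median of 0.28. In edgeR 2 had an unadjusted p under 0.05, beside 3045 of all 12050 tested genes, and 0 were called. Platr14 (4930500J02Rik, chromosome 2, 104559184 to 104571429) came nearest. It had 74.5 and 66.9 CPM in Em+ and 52.3 and 56.5 CPM in Em-, with no overlap (log2 fold change 0.38, SE 0.09, edgeR adjusted p = 0.0576). DESeq2 (0.38, adjusted p = 0.0422) and the Ensembl table (0.40, adjusted p = 0.0484) did call it, while the known-gene table (0.37, adjusted p = 0.0781), the ENCODE table (0.39, adjusted p = 0.0516) and limma on log2(FPKM + 1) (adjusted p = 0.524) did not. Platr4 (C430002E04Rik) had 33.9 and 53.1 CPM in Em+ and 37.2 and 36.0 CPM in Em-, so that its value of 0.24 (edgeR adjusted p = 0.436) came from Em+ replicate 2. Platr10 (2410007B07Rik), the one with the most reads, had 126 and 108 CPM in Em+ and 127 and 136 CPM in Em- (−0.17, edgeR adjusted p = 0.274).

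No member named as antisense to a coding gene passed the test, and no tested partner did. There were 15 such members, 0 were called, and 2 had an unadjusted p under 0.05 in edgeR, beside 3045 of all 12050 tested genes. The sense gene was tested for 10 of the 15 members, and 0 of these sense genes were called. In 5 pairs the fold changes of RNA and partner had the same sign and in 5 the opposite sign. Abhd11os had −0.34 (edgeR adjusted p = 0.116) beside −0.25 for Abhd11 (adjusted p = 0.104), and Rab10os had 0.31 (adjusted p = 0.151) beside −0.09 for Rab10 (adjusted p = 0.421). The libraries were stranded, but the use of strand in counting is not given in the sources used here, so reads of an antisense RNA and of its partner may not be fully separated.

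Of the 13 transcribed pseudogenes 1 was called (2210409E12Rik), beside 4.64% of all 12050 tested genes. Another, at 1 symbol, had the largest fitted fold change of the whole set without being called. BC002163, now Ndufs5-ps, a pseudogene of a mitochondrial complex I subunit inside the span of Zbtb20 (chromosome 16, 42955580 to 42956079), was listed in the RefSeq table with 1443 and 5 counts in Em+ and 1 and 6 counts in Em-. All but a few reads came from Em+ replicate 1. The fitted log2 fold change was 7.71 (SE 2.29, edgeR adjusted p = 0.101), and it was 0.72 (adjusted p = 0.559) without that library. DESeq2 (7.76, adjusted p = 0.0432) and the edgeR fit with deposited library totals (7.64, adjusted p = 6.77e-18) did call it. The deposited known-gene table lists the same transcript identifier with 1443 and 1158 counts in Em+ and 1612 and 1719 counts in Em-, a log2 fold change of −0.23 (edgeR adjusted p = 0.159). The Ensembl table gave −0.24 (edgeR adjusted p = 0.164). The 2 tables hold the same number for Em+ replicate 1 and differ in the other 3 libraries. The functional gene Ndufs5 had 9 and 21 counts in Em+ and 18 and 29 counts in Em- in the RefSeq table. The value of 7.71 is therefore a feature of 1 table and 1 library.

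**Figure D4:**
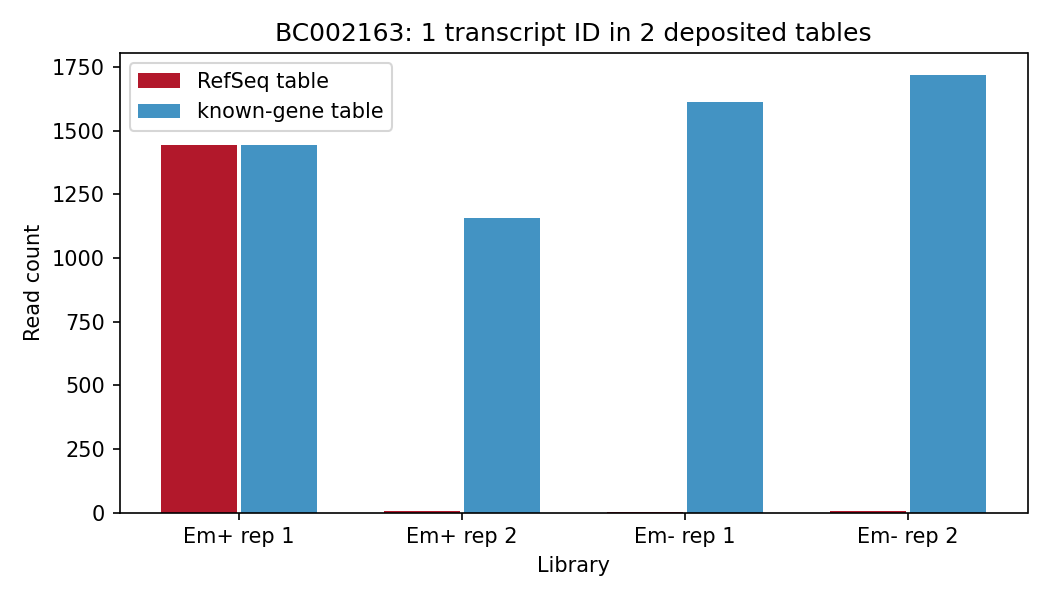
Read counts of BC002163 in each library as listed under 1 transcript identifier in the RefSeq table (red) and in the known-gene table (blue). The bars are equal for Em+ replicate 1 at 1443, while in the other 3 libraries the RefSeq bars are between 1 and 6 and the known-gene bars between 1158 and 1719.

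The other annotations gave similar fold changes for most members. By symbol, 220 members were found in the known-gene table, 4 were called (3.54% of all genes tested there), and 203 had a log2 fold change within 0.1 of the RefSeq value. The 2 that differed by more than 0.4 were BC002163 and 5730408K05Rik, which had −0.19 (edgeR adjusted p = 0.212) in the RefSeq table and −0.71 (adjusted p = 0.123) in the known-gene table. The fit of the Ensembl table called 6 of the 160 members it holds (4.01% of all its tested genes), and that of the ENCODE table called 4 of 155 (4.1% of all).

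Among the libraries left out in turn, those of Em+ changed the number of calls most. Without Em+ replicate 1, 72 members (32%) were called, against 41.4% of all tested genes, and without Em+ replicate 2, 24 members (10.7%) were called, against 16.3%. In these fits 1 Em+ library stands against 2 Em- libraries, the spread comes from the Em- pair alone, and the lone Em+ library is assumed to vary like them. DESeq2 and limma on log2(FPKM + 1) called 0 members of the nuclear, antisense, regulatory, snoRNP, decay and Xist partner groups that edgeR left at 0, and DESeq2 called 2 of the exosome genes, C1d and Zfc3h1. Limma on that scale called 2 members in all. They were 2210409E12Rik and C330022C24Rik, so that 5 of the 6 members called by edgeR were not called by it, the snoRNA hosts among them.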

How the data were processed

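Whole-transcriptome libraries of 2 sorted fractions, 2 libraries each, were analysed from 4 transcript tables. Per the file headers, the authors deposited a raw count and an FPKM value per transcript and library. The submitters' processing notes name Bowtie2 and mm10. Which program counted the reads, with which annotation release, strand setting and rule for multiply matching reads, is not given in the sources used here. Overlapping genes, pseudogenes and near-identical copies are therefore uncertain. For Em- replicate 1, every deposited count is 0 in the RefSeq and Ensembl tables, so its counts were recovered by multiplying FPKM by transcript length and library total. On the libraries with both columns this returned the exact count for 99.95 to 99.97% of 24538 RefSeq transcripts.

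RefSeq counts were summed per symbol, and the 12050 symbols with a mean FPKM of at least 1 were fitted with edgeR 4.0.16 (R 4.3.3, quasi-likelihood, TMM, no covariate, two-sided tests), adjusted by Benjamini-Hochberg over all of them, with a threshold of 0.05. The common biological coefficient of variation was 0.0731. The SE of a log2 fold change comes from the F statistic. Starts in the tables count from 0 and are printed counting from 1. Sequences are RefSeq's. Alternatives used DESeq2 1.42.0, limma 3.58.1 on log2(FPKM + 1) and log2(FPKM + 0.1), other scalings, filters and tables, and single libraries left out. Genes named are the called members, the 10 highest in mean FPKM, members of the role lists, those at the edge of the level rule, listed partner proteins, and neighbours of called members. A few others were chosen after their values were seen: the Platr group, Abhd11os, Rab10os, Srsf3, Sfpq, C330022C24Rik, BC002163, and the farther neighbours Trim75, Irx4 and Trim43a. The members and lists were chosen with earlier results of these data known.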

Additional observations from a re-analysis of the deposited data

How the results depend on the processing

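The count of 6 called members (3 higher, 3 lower) was 11 with DESeq2 (6 higher, 5 lower, of 528 and 151 genes), 14 with deposited library totals (2 higher, 12 lower, of 334 and 293 genes), 2 with limma on log2(FPKM + 1), which lost 5 of the 6, and 1 on log2(FPKM + 0.1), and ran from 6 to 72 when 1 library was left out, with 24 for Em+ replicate 2 and the most for Em+ replicate 1. The all-gene count of 559 was 293 and 269 with those limma fits, 344 at a mean FPKM of at least 2 and 1178 with no filter, and ran from 490 to 4992 with 1 library left out. The members' median of −0.01 was −0.18 with library totals (all genes −0.16), −0.15 and −0.17 with limma (all genes −0.14 and −0.16) and −0.072 with no filter (all genes 0.03). It ran from −0.03 to 0.01 with 1 library left out. Deviations of same-numbered libraries from their group means correlated at 0.02, so the numbers are not shown to pair the libraries. With the replicate block 25 members (13 higher, 12 lower) and 1552 genes were called. For 47 named members, 711 of the fits kept their side of the threshold, 39 moved past it and 19 fell short of it. No called direction turned. BC002163, with RefSeq reads almost only in Em+ replicate 1, is among the higher members with DESeq2 and with library totals. Limits: 2 libraries per fraction, 1 line, counts of 1 library computed from FPKM. Where other settings moved these results, the cause was not tested.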

Other observations

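Symbols that met the annotation, length and name criteria but averaged under 2 FPKM were read from another fit. In an edgeR fit with no filter on level, 33 of 1005 (3.28%) were called, all 33 higher in Em+ cells, against 5.95% of all 19797 symbols called, 4.48% higher and 1.47% lower. Lower calls numbered 0, with 11 lower and 111 higher at an unadjusted p under 0.05. DESeq2 and limma were not run without the filter. Of the 33, 25 at least doubled (log2 fold change of 1 or more). The examples below were chosen after their values were seen.

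4932412D23Rik, on chromosome 16 (42725702 to 42875762), had 161 and 157 counts in Em+ and 22 and 27 counts in Em- (log2 fold change 2.77, SE 0.19, edgeR adjusted p = 1.49e-05). Wls, a coding gene for a Wnt secretion protein of which the table lists a noncoding transcript only, had 220 and 178 counts in Em+ and 52 and 57 counts in Em- (1.94, SE 0.16, edgeR adjusted p = 5.25e-05). 6030407O03Rik had 108 and 146 counts in Em+ and 21 and 13 counts in Em- (2.98, SE 0.30, edgeR adjusted p = 2.74e-04). These genes had reads in both fractions with no overlap. 9130227L01Rik had 51 counts in each Em+ library and no count in Em-. Taking 3 counts over both Em- libraries as the floor, it was at least 36.9-fold higher in Em+. It was 1 of 6 called symbols with 0 in both Em- libraries. Floors cover counting error only.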
